A study of Homo sapiens and Mus musculus with 17 samples.

Results

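The libraries of HEK293T replicate 1 were compared with those of replicate 3. They are 6 of the 9 HEK293T libraries and of the 17 libraries of the whole series, picked by the replicate number in their labels. The comparison itself was chosen with earlier results of these data known. HEK293T is a human embryonic kidney line that carries the SV40 large T antigen. Each replicate number holds 1 WT, 1 SEL1L KO and 1 HRD1 KO library. The knockout lines had been made with CRISPR/Cas9, and WT cells had received the empty plasmids without a guide. All cells grew in the same serum-containing medium without any treatment that differs between the numbers. PolyA-enriched RNA was read from both ends of each fragment on 1 flow cell. The labels do not say what a replicate number stands for, whether a day, a passage, a frozen stock or an extraction, so that a difference between numbers cannot be assigned to any of them. Nor do they say whether the 3 libraries of a number come from parallel cultures. The p-values below measure the spread between these libraries only.

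Values are FPKM, the fragments of a gene divided by its transcript length and by the mapped fragments of its library. Differences are means over the 3 genotypes of log2(FPKM + 0.1) in replicate 3 minus replicate 1, with the standard error (SE) in brackets after a plus-minus sign, and they understate the change of genes with low values. Where 3 FPKM values follow each other, they stand for the WT, SEL1L KO and HRD1 KO library in this order. A gene was tested if its FPKM was at least 1 in at least 3 of the 6 libraries, which held for 15019 of the 62714 genes in the table. A gene is said to be higher or lower, to rise or to fall, where limma's moderated test with genotype as block gave a Benjamini-Hochberg adjusted p under 0.05 over all genes tested.

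Cell lines kept in culture change with density, nutrients and the age of the serum. Protein synthesis draws on both the ribosomal protein mRNAs, which carry a run of pyrimidines at their start, and the nucleolar factors that build ribosomes. Amino acid shortage and other stresses act through the kinases of the integrated stress response on the transcription factor ATF4, and sterol supply acts through SREBP factors on the genes of cholesterol synthesis. SEL1L and HRD1 form the complex of the endoplasmic reticulum (ER) that removes misfolded proteins, a process called ER-associated degradation (ERAD).

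The targeted genes were looked at first. SEL1L (chromosome 14, 81471547 to 81533853 of GRCh38), the partner and stabiliser of HRD1, had an FPKM of 4.39, 1.82 and 3.79 in replicate 1 and 12.9, 2.59 and 24.1 in replicate 3. The SEL1L KO library was the lowest of its replicate number in both. SEL1L itself was higher in replicate 3, by 1.55 (± 0.38, adjusted p = 0.0267), with differences of 1.53 in the WT pair, 0.49 in the SEL1L KO pair and 2.64 in the HRD1 KO pair. That call was lost without the HRD1 KO pair (1.01, adjusted p = 0.122) and when the trend over GC content and length was removed (1.16, adjusted p = 0.0609). In replicate 2, SEL1L stood at 8.74, 3.36 and 19.3. SYVN1, the gene of the ubiquitin ligase HRD1, had an FPKM of 16.95, 28.9 and 22.5 in replicate 1 and 16.9, 25.9 and 19.8 in replicate 3 (difference -0.11 ± 0.18, adjusted p = 0.688). This small difference takes the other sign, 0.04, when libraries are scaled to a common sum. In both replicates the HRD1 KO library had more SYVN1 mRNA than the WT library. An mRNA level does not show whether the HRD1 protein is lost, and no protein was measured here. The paper checked its HEK293T knockout lines by immunoblot. HRD1 KO is used here as the labels give it.

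The markers of HEK293T were present, and most of those of other cell types were at or near 0. Of 14 HEK293T markers, 13 were tested. The summed FPKM of the markers was 591 to 816 in replicate 1 and 406 to 494 in replicate 3, most of it from the vimentin gene VIM. The median difference of the 13 was 0.07, and 7 of them lay above the median of all genes tested. In replicate 3, 4 of them were lower and 0 higher, against 9.36% and 10.3% of all genes. Without the WT pair 2 were higher and 2 lower, and without the HRD1 KO pair 0 higher and 2 lower. Among the 4 were KRT8, an epithelial keratin, with 36.7, 34.6 and 37.4 in replicate 1 and 8.57, 8.61 and 11.5 in replicate 3 (-1.92 ± 0.19, adjusted p = 0.00298), and the intermediate filament vimentin, VIM, with 569, 396 and 513 against 226, 269 and 286 (-0.91 ± 0.18, adjusted p = 0.0129). The neurofilament genes NEFM (2.30) and INA (1.83) differed in the other direction without passing the test. Fibroblast markers summed to 5.32 to 10.6 in replicate 1 and 3.92 to 7.29 in replicate 3, blood cell markers to 6.19 to 11.5 and 6.16 to 11.04, endothelial markers to 0.27 to 0.67 and 0.30 to 0.54, epithelial carcinoma line markers to 6.04 to 9.74 and 2.36 to 4.05, and adipocyte markers to 63.0 to 88.5 and 43.1 to 55.4. The last sum came mostly from CFD and PPARG, while ADIPOQ, the gene of adiponectin, was listed at 0 in all 6 libraries, as were PTPRC of blood cells, CDH5 of endothelium and COL1A2 and DCN of fibroblasts. Of these 5 lists, 10 members in all were tested and 1 was called, the lipoprotein lipase gene LPL, at 2.32, 2.63 and 1.16 in replicate 1 and 0.28, 0.22 and 0.32 in replicate 3. The LPL call was lost without any 1 of the 3 pairs (adjusted p = 0.0699, 0.0786 and 0.0561 without the WT, SEL1L KO and HRD1 KO pair).

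Replicate number was the main axis of variation in these libraries. Of 15019 genes, 1552 were higher in replicate 3 (10.3%) and 1406 were higher in replicate 1 (9.36%). In 741 and 825 of these, the difference exceeded 1 on the log2 scale. The median gene differed by 0.02, with quartiles of -0.43 and 0.45. Of all genes tested, 57.2% moved the same way in all 3 genotypes. Of the 2958 called genes, 2953 did, but the call rests on the same 3 differences and favours genes in which they agree. Over the 6 libraries, the replicate number took a median of 46.6% of a gene's sum of squares, genotype 18.9% and the remainder 22.0%. Genotype has as many degrees of freedom here as the remainder, and the replicate number fewer. The median share of genotype thus did not exceed that of the remainder. On the first principal component of all 9 HEK293T libraries, which held 34.5% of the variance, the libraries of replicate 1 lay between -65.0 and -38.5, those of replicate 2 between -8.40 and -7.11, and those of replicate 3 between 46.1 and 62.8. The 3 genotype pairs share no library, and across 15019 genes, which are not independent, their differences correlated at 0.43 (WT with SEL1L KO), 0.53 (WT with HRD1 KO) and 0.47 (SEL1L KO with HRD1 KO; Pearson's r, as a description). The counts fell to 1032 higher in replicate 3 and 993 higher in replicate 1 without the WT pair, and to 666 and 629 without the HRD1 KO pair. They rose to 1872 and 1856 without the SEL1L KO pair. Scaling each library to the same sum, as in TPM, moved the median gene to 0.17 and the split to 2480 higher and 994 lower. Without a variance trend 204 and 282 genes were called, and without the filter on low values GEN1 alone was. The summed FPKM was 943100 to 1009000 in replicate 1 and 866500 to 885500 in replicate 3, and the libraries of replicate 1 were also somewhat deeper, at 1.03 to 1.24 times the depth of the median library against 0.824 to 0.983.

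**Figure D1:**
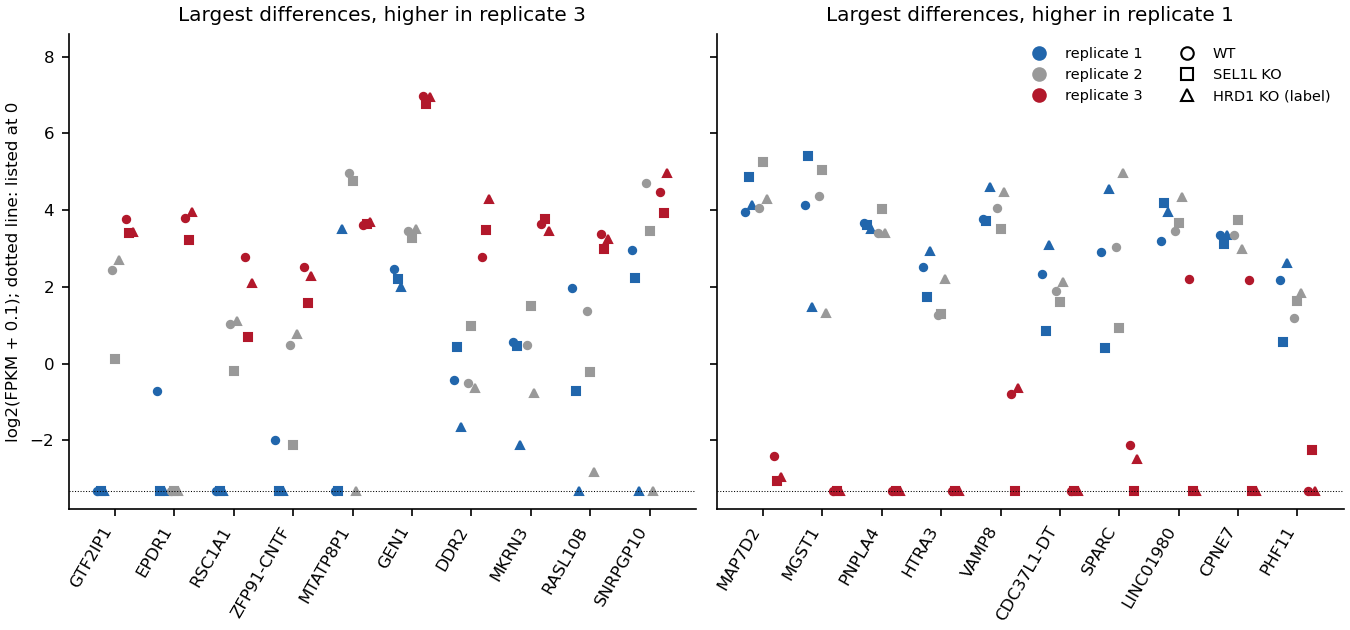
Expression of the 10 genes with the largest difference in each direction, as log2(FPKM + 0.1) in the 9 HEK293T libraries. Colour gives the replicate number and shape the genotype, and points on the dotted line are listed at 0. GEN1 stands at 109 to 125 FPKM in replicate 3 against 3.93 to 5.46 in replicate 1, and most genes on the right have no or almost no signal in replicate 3 while replicate 2 lies with replicate 1.

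The difference with the smallest p between the replicates was that of GEN1 (chromosome 2, 17753858 to 17788946), which encodes a nuclease that cuts Holliday junctions. Its FPKM was 5.46, 4.55 and 3.93 in replicate 1 and 125, 109 and 125 in replicate 3, a difference of 4.67 (± 0.19, adjusted p = 4.98e-05), and 10.9, 9.57 and 11.3 in replicate 2. SMC6, a gene of the SMC5/6 complex that overlaps GEN1 on the opposite strand, had 22.7, 19.5 and 23.6 against 49.98, 41.4 and 38.6 (0.98, adjusted p = 0.0125). The neighbour KCNS3, a potassium channel gene, had 1.56, 1.69 and 1.98 against 0.46, 0.52 and 0.51 (-1.62, adjusted p = 0.0659). Both are named because they lie beside GEN1 and were chosen after their values were seen. At GEN1 the libraries of replicate 3 lay far above all others, those of replicate 2 lay between, and neither neighbour showed a difference of that size. Reads in the overlap of GEN1 and SMC6 may have been divided by estimate, which makes their values less certain and was not tested.

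Several genes were expressed in replicate 3 and hardly in replicate 1. EPDR1, a lysosomal protein gene on chromosome 7 (37920640 to 37951936), was at 13.8, 9.19 and 15.4 in replicate 3, at 0.51 in the WT library of replicate 1, and listed at 0 in the other 2 libraries of replicate 1 and in all 3 of replicate 2. DDR2, a collagen receptor tyrosine kinase, rose from 0.64, 1.25 and 0.22 to 6.72, 11.1 and 19.7 (4.07 ± 0.55, adjusted p = 0.0054). MKRN3, an imprinted gene whose loss causes early puberty, rose from 1.38, 1.28 and 0.13 to 12.3, 13.6 and 10.9 (3.99 ± 0.49, adjusted p = 0.0044). RASL10B, a Ras-like GTPase gene, rose from 3.8, 0.51 and 0 to 10.3, 7.84 and 9.37 (3.90 ± 0.79, adjusted p = 0.0152). In each of these genes the lowest library of replicate 3 lay above the highest of replicate 1, which held for 24.1% of all genes tested (3621). The other 5 genes with the largest differences share or overlap sequence with other genes, and RSEM divides such reads by estimate, so their values are uncertain. They are GTF2IP1, a pseudogene of GTF2I that was listed at 0 in replicate 1 and stood at 13.7, 10.5 and 10.7 in replicate 3, the read-through gene ZFP91-CNTF, RSC1A1, and the pseudogenes MTATP8P1 and SNRPGP10. MTATP8P1 and SNRPGP10 lost their calls with the GC content and length trend removed (adjusted p = 0.062 and 0.0684).

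In the other direction, MAP7D2 on chromosome X (20006713 to 20116907), a microtubule-associated protein gene, fell from 15.3, 29.0 and 17.5 to 0.09, 0.02 and 0.03 (-7.11 ± 0.46, adjusted p = 0.000727). Replicate 2 had 16.5, 37.9 and 19.6. PNPLA4, a lipase gene at 7898247 to 7927739 of the same chromosome, had 12.6, 12.0 and 11.3 in replicate 1, 10.5, 16.2 and 10.5 in replicate 2, and was listed at 0 in all 3 libraries of replicate 3. VAMP8, a SNARE of late endosomes, fell from 13.5, 13.0 and 24.4 to 0.48, 0 and 0.55 (-5.61 ± 0.49, adjusted p = 0.00168). MGST1, a microsomal glutathione transferase (17.5, 42.7 and 2.67 in replicate 1), the serine protease gene HTRA3 (5.60, 3.25 and 7.61) and the long non-coding RNA CDC37L1-DT (4.93, 1.71 and 8.48) were listed at 0 in every library of replicate 3 and expressed in every library of replicate 2. SPARC, a matrix glycoprotein, fell from 7.43, 1.23 and 23.2 to 0.13, 0 and 0.08 (-5.26 ± 0.72, adjusted p = 0.00556). LINC01980 and the copine gene CPNE7 kept an FPKM of 4.55 and 4.41 in the WT library of replicate 3 and were listed at 0 in its other libraries. With PHF11 they completed the 10 largest falls and lost their calls without the HRD1 KO pair (adjusted p = 0.0843, 0.0707 and 0.0642). The plot of the largest differences shows that replicate 2 stood with replicate 1 at these genes.

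Genes expressed in all 3 libraries of 1 number and in none of the other were few. With expression set at an FPKM of at least 5 and absence at under 1 in all 3 libraries, 7 genes were on in replicate 1 and off in replicate 3, and 5 were on in replicate 3 and off in replicate 1. Of these, 3 and 2 have a gene symbol, namely MAP7D2, PNPLA4 and VAMP8, and EPDR1 and GTF2IP1. All 12 were called. Of the 4 protein-coding genes among the former, 3 were on in all libraries of replicate 2 and 1 was off in all of them. Of the 3 among the latter, 0 were on and 1 was off. Over all 7 of the former, 3 were on and 3 off in replicate 2, and over all 5 of the latter 0 and 1.

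**Figure D2:**
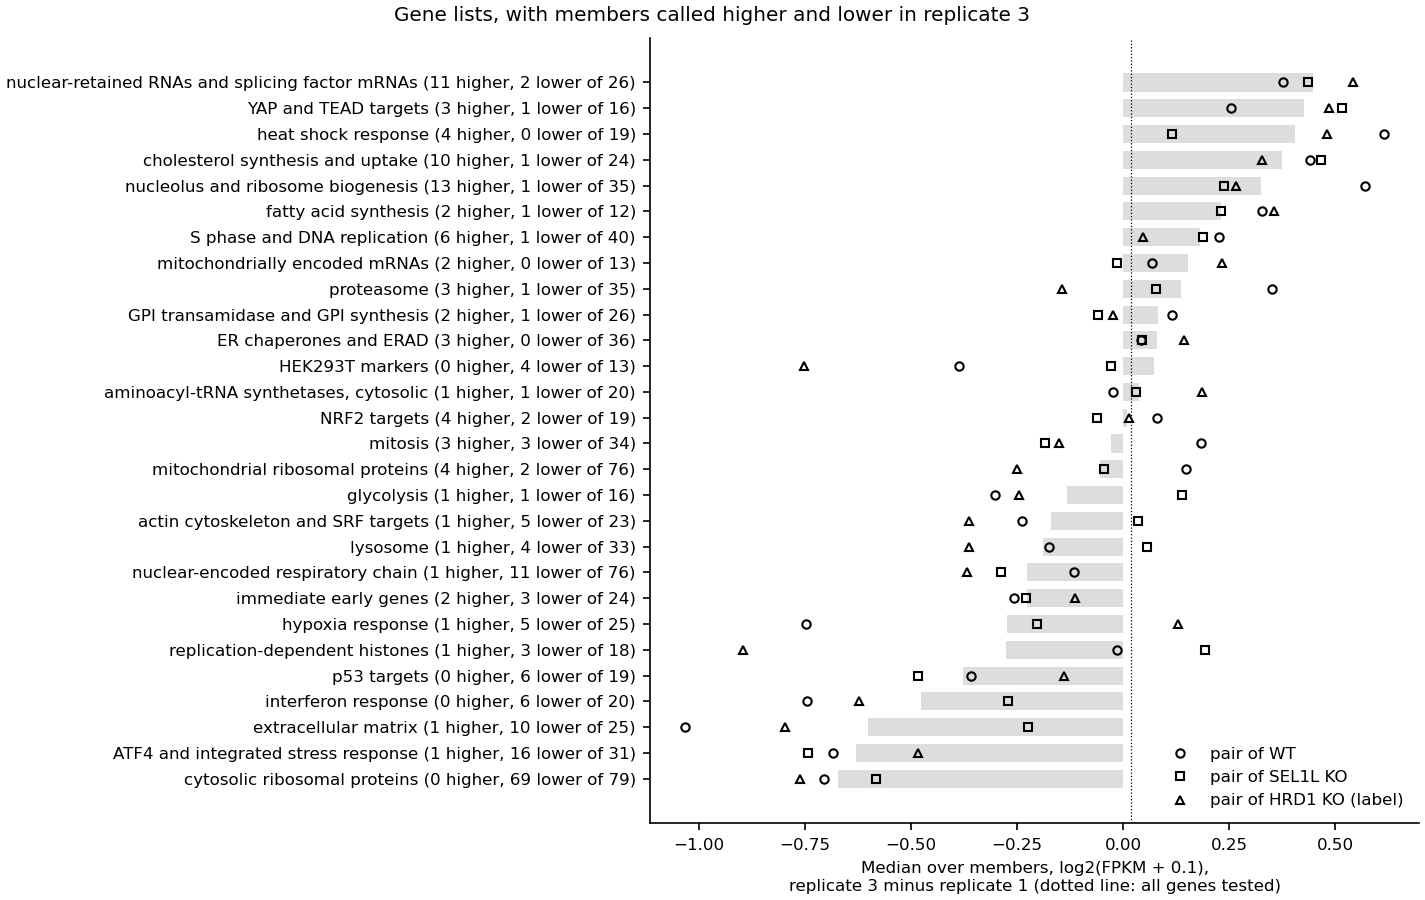
Median difference of the members of each gene list with at least 12 genes tested, as log2(FPKM + 0.1) in replicate 3 minus replicate 1. Bars are the median over members of the mean difference, symbols the median within each genotype's pair, and the labels give how many members were higher or lower in replicate 3. Cytosolic ribosomal proteins (-0.67) and ATF4 targets (-0.63) lie at the lower end and nuclear and splicing factor RNAs (0.45) at the upper end.

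The mRNAs of the cytosolic ribosomal proteins, the structural proteins of the translating ribosome, were lower in replicate 3 almost without exception. All 79 were tested, and 69 were lower and 0 higher, against 9.36% and 10.3% of all genes. The differences ran from -1.09 to -0.26 with a median of -0.67, against 0.02 over all genes tested. The medians were -0.70 in the WT pair, -0.58 in the SEL1L KO pair and -0.76 in the HRD1 KO pair. Their summed FPKM was 252600, 251600 and 258400 in replicate 1, 181100, 210000 and 189700 in replicate 2, and 153700, 167600 and 153400 in replicate 3. They made up 25.6% to 26.8% of all FPKM in replicate 1 and 17.3% to 19.2% in replicate 3. RPL13 fell from 7336, 6672 and 7879 to 3533, 3830 and 3280 (-1.04 ± 0.13, adjusted p = 0.00492), and RPS6, the target of S6 kinase, from 3282, 3428 and 3365 to 1845, 1712 and 1461 (-1.01 ± 0.13, adjusted p = 0.00498). RPL17 differed by -1.001. In these 3 genes all libraries of replicate 3 lay below those of replicate 1, as they did in 20% of all genes tested (3002). With the trend over GC content and length removed, 44 of the 79 were lower and the median was -0.59. Quantile normalization, which gives the same values to the most abundant genes of every library, left a median of -0.16 and 17 called members.

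Ribosomal protein mRNAs begin with a terminal oligopyrimidine (TOP) motif, which ties their translation to growth signals. The start regions of 3 called members are shown because the motif is what the group shares, with the motif in capitals. They are the members with the smallest p among those that hold the motif, and were read from RefSeq's promoter sequences on GRCh38.p14, each with 15 bases from the annotated start site on. RPS6 lies on the minus strand of chr9:19380222-19380281, RPL13A on the plus strand of chr19:49487563-49487622 and RPLP1 on the plus strand of chr15:69452773-69452832.
RPS6: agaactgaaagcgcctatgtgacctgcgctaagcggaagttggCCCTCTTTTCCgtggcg
RPL13A: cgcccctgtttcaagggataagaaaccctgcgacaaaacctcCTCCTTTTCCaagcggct
RPLP1: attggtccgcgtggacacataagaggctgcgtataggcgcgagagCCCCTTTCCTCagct
The motif was searched as a C within 3 bases of the start site followed by 4 or more C or T, on the transcribed strand alone. It was found in 48 of the 63 ribosomal protein genes that have an entry (76.2%). The share was 13.1% of all 27305 entries and 14.7% of those of tested genes. Among the 48, 42 were lower in replicate 3, and among the 15 without the motif in this window 13 were.

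**Figure D3:**
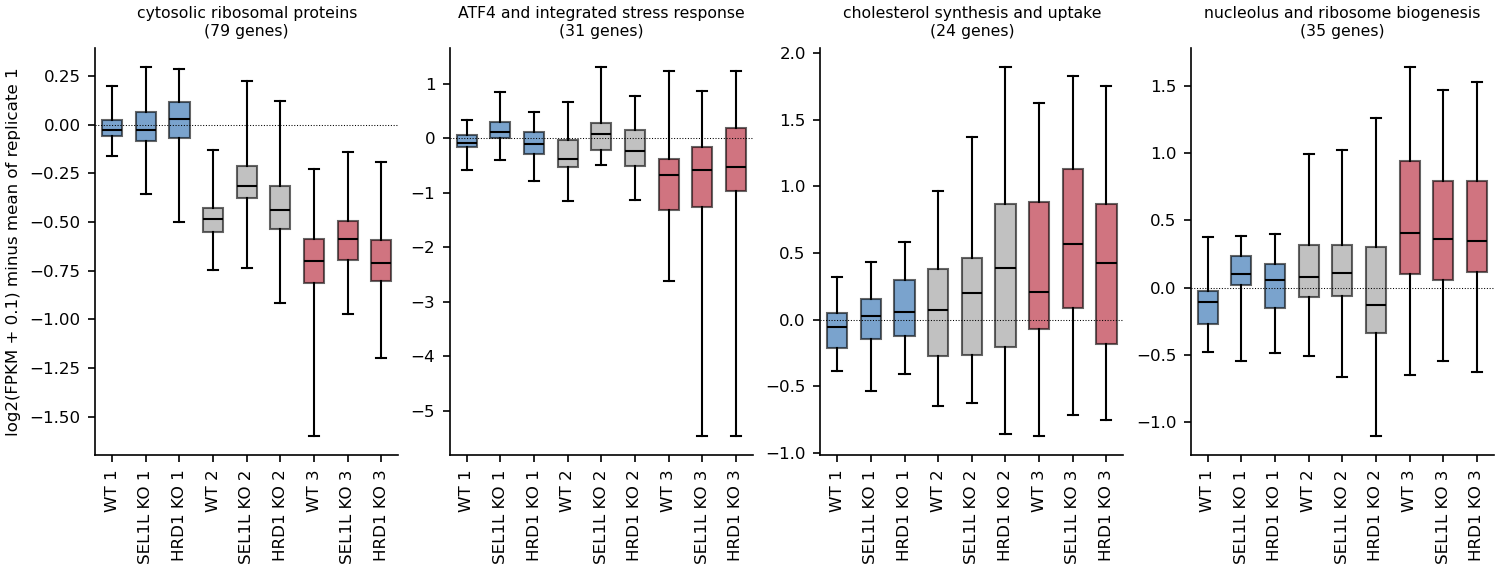
Members of 4 gene lists in each of the 9 HEK293T libraries, as log2(FPKM + 0.1) minus the gene's mean over replicate 1. Boxes span the quartiles of the members with the median as a line, whiskers reach the lowest and highest member, and colours give the replicate number. The boxes of the ribosomal protein mRNAs lie lower in replicate 2 than in replicate 1 and lowest in replicate 3, with a median difference of -0.67 between the last and the first of these.

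Genes that build ribosomes moved in the opposite direction. Of 35 nucleolar genes, 13 were higher in replicate 3 and 1 lower, against 10.3% and 9.36% of all genes. Their median difference was 0.33, and 29 members lay above the median of all genes. UTP20, a component of the small subunit processome, rose from 3.77, 3.64 and 3.90 to 12.0, 10.6 and 11.1 (1.55 ± 0.22, adjusted p = 0.00589). POLR1B, a core subunit of RNA polymerase I, rose from 20.7, 21.7 and 13.4 to 49.4, 47.2 and 46.6 (1.38 ± 0.20, adjusted p = 0.00591). NOLC1, a chaperone of nucleolar ribonucleoproteins, rose from 92.7, 104 and 99.8 to 199, 212 and 227 (1.10), and the helicase gene DDX21 from 82.4, 98.1 and 73.6 to 171, 155 and 182 (1.01). The exception was FBL, the methyltransferase fibrillarin, which was lower (-0.61). The count of higher members was 8 without the HRD1 KO pair, 10 without the WT pair and 12 without the SEL1L KO pair. With GC content and length accounted for, 12 were higher and 0 lower.

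The targets of ATF4 and the integrated stress response were lower in replicate 3. Of 31 tested members, 16 were lower and 1 higher, against 9.36% and 10.3% of all genes. Their median was -0.63 (-0.68, -0.74 and -0.48 in the WT, SEL1L KO and HRD1 KO pairs). DDIT3, the stress factor CHOP, fell from 34.8, 73.0 and 52.1 to 8.21, 15.6 and 14.4 (-2.05 ± 0.19, adjusted p = 0.00176). DDIT4, an inhibitor of mTORC1, fell from 318, 194 and 271 to 47.8, 83.0 and 69.7 (-1.97 ± 0.26, adjusted p = 0.00498). SESN2, which senses leucine, fell from 41.7, 47.9 and 51.2 to 20.7, 19.3 and 21.7 (-1.18), and EIF4EBP1, a brake on cap-dependent translation, from 441, 467 and 564 to 176, 207 and 248 (-1.23). DDIT3 had the order SEL1L KO above HRD1 KO above WT in both numbers. ATF4 itself differed by -0.34 without passing the test. The single higher member was SLC38A2, an amino acid transporter (1.12). Replicate 2 lay between the others, with a median of -0.26 against replicate 1, where 2 members were lower. The count of lower members was 13 with the GC content and length trend removed and 11, 14 and 13 without the WT, SEL1L KO and HRD1 KO pair.

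ATF4 binds CCAAT-enhancer-binding protein and ATF response elements, called CARE. Stretches from the promoters of 3 called members are shown because they hold the CARE letters TGATGNAA on either strand, in capitals. They lie on the minus strand of chr7:97872427-97872506 for ASNS, asparagine synthetase, on the plus strand of chr15:40953232-40953311 for CHAC1, a glutathione-degrading enzyme, and on the plus strand of chr1:212565186-212565265 for the transcription factor gene ATF3.
ASNS: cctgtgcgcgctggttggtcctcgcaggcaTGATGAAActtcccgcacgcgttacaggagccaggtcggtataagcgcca
CHAC1: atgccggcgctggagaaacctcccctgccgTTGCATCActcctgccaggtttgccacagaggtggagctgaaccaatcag
ATF3: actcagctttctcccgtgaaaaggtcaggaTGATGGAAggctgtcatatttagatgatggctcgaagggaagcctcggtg
ASNS, CHAC1 and ATF3 differed by -1.32 (ASNS), -1.41 (CHAC1) and -1.16 (ATF3). The letters were searched in the 250 bases before and 50 after the start site. They were found in 5 of 25 members with an entry (20%), in 3.67% of all entries and in 1.57% of those of tested genes. Of the 5, 4 were lower, and of the 20 others 9 were. A match is a description of the letters and not evidence of binding.

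Sterol synthesis genes rose in replicate 3, with 10 of 24 tested members higher and 1 lower, against 10.3% and 9.36% of all genes. Their median was 0.38 (0.44, 0.47 and 0.33 in the 3 pairs). HMGCS1, which makes HMG-CoA, rose from 20.6, 22.5 and 17.3 to 61.9, 71.0 and 50.7 (1.60 ± 0.17, adjusted p = 0.0037). FDFT1, squalene synthase, rose from 57.5, 60.8 and 52.4 to 113, 134 and 111 (1.07). The lower member was PMVK, phosphomevalonate kinase (-0.78). The other genes did not move as a block, as INSIG1 (0.14), FDPS (-0.13) and SREBF2 (-0.19), the gene of SREBP-2, did not pass the test. With the trend over GC content and length removed, 9 were higher and 0 lower. The sterol regulatory element letters TCACNCCAC were found on either strand in 1 of 18 members with an entry, so none is printed. They were found in 1.15% of all entries and in 0.97% of those of tested genes. Among 12 fatty acid synthesis genes, 2 were higher and 1 lower. The desaturase gene SCD rose from 97.8, 89.0 and 75.3 to 230, 225 and 250 (1.43 ± 0.17, adjusted p = 0.00421) and ACLY, which makes cytosolic acetyl-CoA, from 72.6, 85.4 and 52.1 to 127, 120 and 118 (0.82), while the desaturase gene FADS2 fell from 13.9, 12.2 and 18.9 to 8.28, 6.82 and 7.80 (-0.94). The calls of ACLY and FADS2 were lost without the HRD1 KO pair (adjusted p = 0.0581 and 0.0729).

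Of 36 ER chaperone and ERAD genes, 3 were higher in replicate 3 and 0 lower, against 10.3% and 9.36% of all genes, with a median of 0.08. Without the WT or the SEL1L KO pair 5 were higher, and without the HRD1 KO pair 1 was. Besides SEL1L these were the chaperone genes CANX, with 244, 289 and 290 against 279, 616 and 948 (0.998 ± 0.25, adjusted p = 0.0292), and HYOU1, with 44.4, 87.2 and 143 against 62.0, 179 and 229 (0.73 ± 0.17, adjusted p = 0.0231). The libraries of the numbers overlap in both genes, and both calls were lost without the HRD1 KO pair (adjusted p = 0.109 and 0.0548). HYOU1 was not called without the SEL1L KO pair either (0.0884), nor CANX with the GC content and length trend removed (0.103). The GPI list, the transamidase and synthesis genes for glycolipid anchors, had 2 of 26 members higher and 1 lower. These counts lie near or under the shares of all genes. PIGW, an acyltransferase of that pathway, rose from 6.07, 8.97 and 6.09 to 15.4, 19.9 and 18.9 (1.36 ± 0.21, adjusted p = 0.00707), PGAP4 rose (0.97) and PIGV fell (-0.84), the last 2 not without the WT or the HRD1 KO pair.

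Extracellular matrix genes were lower in replicate 3, 10 of 25 tested with 1 higher, against 9.36% and 10.3% of all genes. Their medians were -1.03 in the WT pair, -0.22 in the SEL1L KO pair and -0.80 in the HRD1 KO pair. COL9A3, a collagen chain, fell from 26.1, 22.0 and 31.5 to 3.31, 4.08 and 3.26 (-2.86 ± 0.24, adjusted p = 0.00147). COL18A1, the precursor of endostatin, fell from 43.1, 33.1 and 47.6 to 17.9, 17.9 and 18.8 (-1.16), and FN1, fibronectin, from 19.0, 9.04 and 21.2 to 6.10, 4.88 and 9.42 (-1.22). The higher member was FBN1, fibrillin (1.49). The number of lower members was 6 without the WT pair, 5 without the HRD1 KO pair and 14 without the SEL1L KO pair. Among 23 actin and SRF genes, 5 were lower and 1 higher, with 2 lower without the HRD1 KO pair. ACTB, the beta-actin often used as a reference gene, was the higher one, from 740, 643 and 884 to 1788, 1258 and 1368 (0.96 ± 0.16, adjusted p = 0.00826). ACTA2, smooth muscle actin, had 25.9, 4.88 and 12.9 against 0.96, 2.48 and 1.55 (-2.85), a call that was lost without the HRD1 KO pair (adjusted p = 0.0661), and the actin crosslinker gene FLNA fell from 168, 108 and 168 to 92.7, 56.7 and 39.4 (-1.29). Of 16 YAP and TEAD target genes, 3 were higher, among them TEAD1 (1.43) and CCN1 (1.18), and 1 lower, RBMS3, from 6.75, 3.87 and 3.06 to 0.23, 0 and 0.06 (-4.66).

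Of 19 tested p53 targets, 6 were lower in replicate 3 and 0 higher, against 9.36% and 10.3% of all genes. The other 13 did not pass the test. PHLDA3 fell from 27.6, 23.3 and 21.3 to 8.46, 6.23 and 5.03 (-1.88 ± 0.20, adjusted p = 0.0037), the DNA repair gene DDB2 from 43.3, 27.0 and 37.2 to 9.56, 10.1 and 9.16 (-1.87), the apoptosis gene BBC3 from 24.5, 24.6 and 18.8 to 6.42, 8.66 and 5.05 (-1.76), and CDKN1A, the cell cycle inhibitor p21, from 24, 11.3 and 14.5 to 4.65, 5.98 and 4.69 (-1.62). The large T antigen carried by HEK293T binds p53, which is background and was not measured here. Of 20 tested interferon response genes, 6 were lower and 0 higher, 4 without the WT pair and 2 without the HRD1 KO pair. IFITM2 fell from 30.8, 11.8 and 72.8 to 10.9, 4.44 and 14.1 (-1.75 ± 0.24, adjusted p = 0.00556), with overlapping libraries and the order of genotypes kept. The calls of ISG15 (-0.98), IFITM1 (-2.99) and BST2 (-2.88) were lost when the GC content and length trend was removed (adjusted p = 0.112, 0.0502 and 0.0512), which left 2 lower members of 20, near the 9.36% of all genes.

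Growth and stress genes gave smaller counts. Of all genes tested, 10.3% were higher and 9.36% lower, and the immediate early and glycolysis counts lie near or under these shares. Of 24 immediate early genes, 2 were higher and 3 lower, with 1 lower without the WT or the HRD1 KO pair. EGR1, a growth factor-induced transcription factor, was at 1.64, 1.54 and 1.66 in replicate 1, 30.6, 9.82 and 35.8 in replicate 2, and 18.9, 14.1 and 13.4 in replicate 3 (3.17 ± 0.25, adjusted p = 0.00147), and FOS rose from 4.27, 1.28 and 2.79 to 14.6, 7.56 and 5.55 (1.73), whereas HES1 (-0.99) and IER3 (-0.96) fell, IER3 not without the WT pair or the HRD1 KO pair. Of 25 hypoxia genes, 5 were lower and 1 higher. The iron- and oxygen-responsive gene NDRG1 had 78.4, 30.2 and 42.5 in replicate 1, 135, 89.3 and 142 in replicate 2 and 18.2, 21.2 and 14.2 in replicate 3 (-1.40 ± 0.29, adjusted p = 0.0153). It lost its call without the HRD1 KO pair (adjusted p = 0.0643), and the count of lower members was 2 without the WT pair, 7 without the SEL1L KO pair and 1 without the HRD1 KO pair. Of 16 glycolysis genes, PFKP, a phosphofructokinase, fell from 68.1, 41.3 and 64.0 to 22.3, 27.4 and 20.8 (-1.27), PGAM1 rose (0.62) but not without the SEL1L KO pair, and 14 did not pass the test. Heat shock genes had 4 of 19 members higher and 0 lower, led by CHORDC1, an HSP90 partner, from 40.7, 57.3 and 33.7 to between 113 and 127 (1.496 ± 0.20, adjusted p = 0.00548). Of 19 NRF2 targets, 4 were higher, among them the thioredoxin reductase gene TXNRD1 (1.19) and glutathione reductase, GSR (1.14), and 2 lower. Without the WT pair 2 were higher and 2 lower, and without the HRD1 KO pair 2 and 0. Of the metallothionein and zinc export genes, 4 were tested and 0 called.

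Of 40 S phase genes, 6 were higher and 1 lower (2, 4 and 3 higher without the WT, SEL1L KO and HRD1 KO pair), and of 34 mitosis genes, 3 were higher and 3 lower (1 and 4, 4 and 2, and 0 and 2 without the same pairs). CCNE2, an E-type cyclin, rose from 6.07, 4.69 and 2.78 to 17.5, 10.0 and 9.63 (1.45 ± 0.24, adjusted p = 0.00836), while the licensing factor gene CDT1 fell from 170, 150 and 134 to 73.1, 72.1 and 73.9 (-1.04), a call lost with the GC content and length trend removed (adjusted p = 0.0563). TOP2A, the topoisomerase of dividing cells, fell from 122.5, 105 and 183 to 67.8, 49.96 and 52.9 (-1.24 ± 0.21, adjusted p = 0.00866) and AURKB fell (-0.85). Of 18 tested histone genes, whose replication-dependent mRNAs mostly lack a polyA tail, 1 was higher and 3 lower, led by H1-2 (32.1, 12.8 and 36.1 against 8.11, 6.61 and 6.73). The lower histone genes numbered 2, 5 and 1 without the WT, SEL1L KO and HRD1 KO pair. The proteasome list had 3 of 35 members higher and 1 lower, namely PSME3 (1.27), PSMD12 (1.09), PSMD11 (0.93) and PSME2 (-1.01), with 5 higher without the SEL1L KO pair. Of 33 lysosomal genes, 1 was higher and 4 lower, led by the sterol carrier gene NPC2 (-0.96), with 1 lower without the WT pair and 2 without the HRD1 KO pair. Of 20 cytosolic aminoacyl-tRNA synthetases, WARS1 was higher (0.84) and AARS1 lower (-0.61), the latter not without the WT or the SEL1L KO pair. Of all genes tested, 10.3% were higher and 9.36% lower, and the mitosis, proteasome, lysosomal and synthetase counts lie near or under these shares.

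Nuclear RNAs and the mRNAs of splicing factors were higher, 11 of 26 with 2 lower, against 10.3% and 9.36% of all genes. SRSF6 rose from 51.2, 51.0 and 47.5 to 190, 157 and 155 (1.74 ± 0.16, adjusted p = 0.00176), SRSF1 from 171, 193 and 145 to 442, 379 and 386 (1.25), and HNRNPH1 from 766, 744 and 695 to 1371, 1331 and 1218 (0.83). MALAT1, an abundant nuclear long non-coding RNA, went the other way, from 1632, 1257 and 2156 to 319, 244 and 125 (-2.94 ± 0.31, adjusted p = 0.00354), with 1004, 997 and 735 in replicate 2. The count of higher members was 6 without the WT pair and 6 without the HRD1 KO pair. With the trend over GC content and length removed it was 5, against 3 lower, and the median fell from 0.45 to 0.14.

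Of 76 nuclear genes of the respiratory chain, 11 were lower and 1 higher, against 9.36% and 10.3% of all genes, with 12, 6 and 6 lower without the WT, SEL1L KO and HRD1 KO pair and 6 with GC content and length accounted for. COX5A, a subunit of cytochrome c oxidase, fell from 594, 643 and 790 to 367, 352 and 340 (-0.93 ± 0.15, adjusted p = 0.00857). Of the 13 mRNAs encoded by mitochondrial DNA, 2 were higher, MT-ATP8 (0.60) and MT-ND4L (0.65), both not without the HRD1 KO pair, and 0 were lower. Their summed FPKM was 108800 to 123400 in replicate 1 and 127000 to 165500 in replicate 3. Against replicate 2 the 13 mRNAs differed more, 9 being higher in replicate 3. Of 76 mitochondrial ribosomal proteins, 4 were higher and 2 lower, against 10.3% and 9.36% of all genes. Without the WT pair these counts were 1 and 3, and without the HRD1 KO pair 0 and 1. MRPL55 on chromosome 1 fell from 312, 324 and 370 to 162, 156 and 142 (-1.13 ± 0.16, adjusted p = 0.00556).

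**Figure D4:**
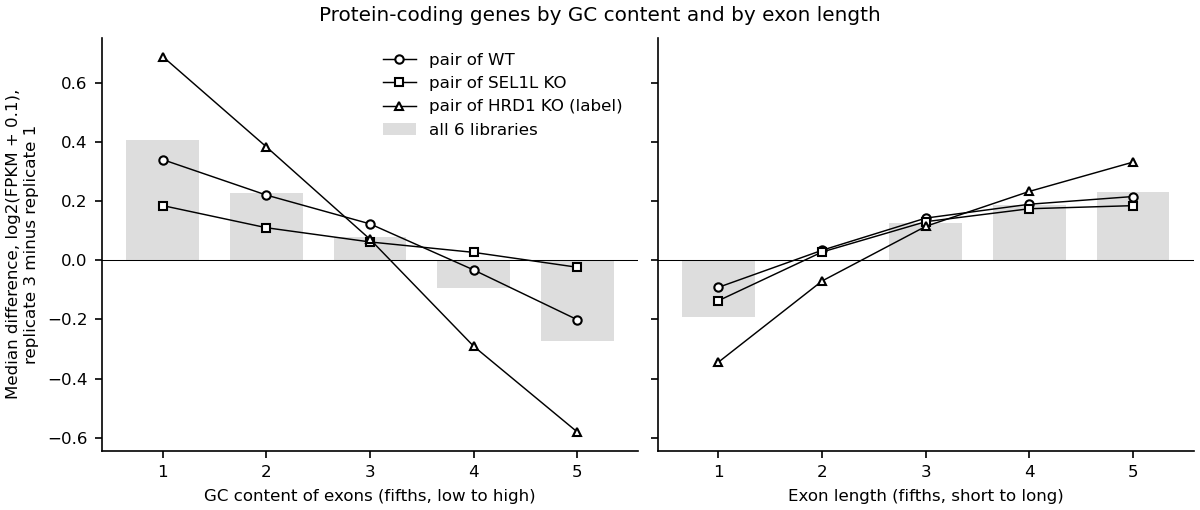
Median difference of protein-coding genes in 5 equal groups by exon GC content and by exon length, as log2(FPKM + 0.1) in replicate 3 minus replicate 1. Bars are medians over all 6 libraries and lines the medians in each genotype's pair. The difference falls from 0.41 in the fifth poorest in GC to -0.27 in the richest, most steeply in the HRD1 KO pair.

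The difference also followed the base composition of genes. Among protein-coding genes, the fifth with the lowest exon GC content (29.2% to 40.5%) had a median difference of 0.41, with 544 of 2459 genes higher in replicate 3 and 51 lower. In the fifth with the highest GC content (58.4% to 79.8%) the median was -0.27, with 60 higher and 392 lower. The span between the outer groups was from 0.34 to -0.20 in the WT pair, from 0.19 to -0.02 in the SEL1L KO pair and from 0.69 to -0.58 in the HRD1 KO pair. Genes with short exon sequence (192 to 3017 bases) had a median of -0.19 and the longest 0.23. Long non-coding RNAs were lower as a class, at a median of -0.31 with 82 of 2029 higher and 280 lower, against 0.07 for 12295 protein-coding genes with 1418 and 1057. When the trend over GC content and length was removed from each library, 1348 genes were higher in replicate 3 and 1059 higher in replicate 1. Whether base composition entered through the cells or through the making of the libraries was not tested.

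**Figure D5:**
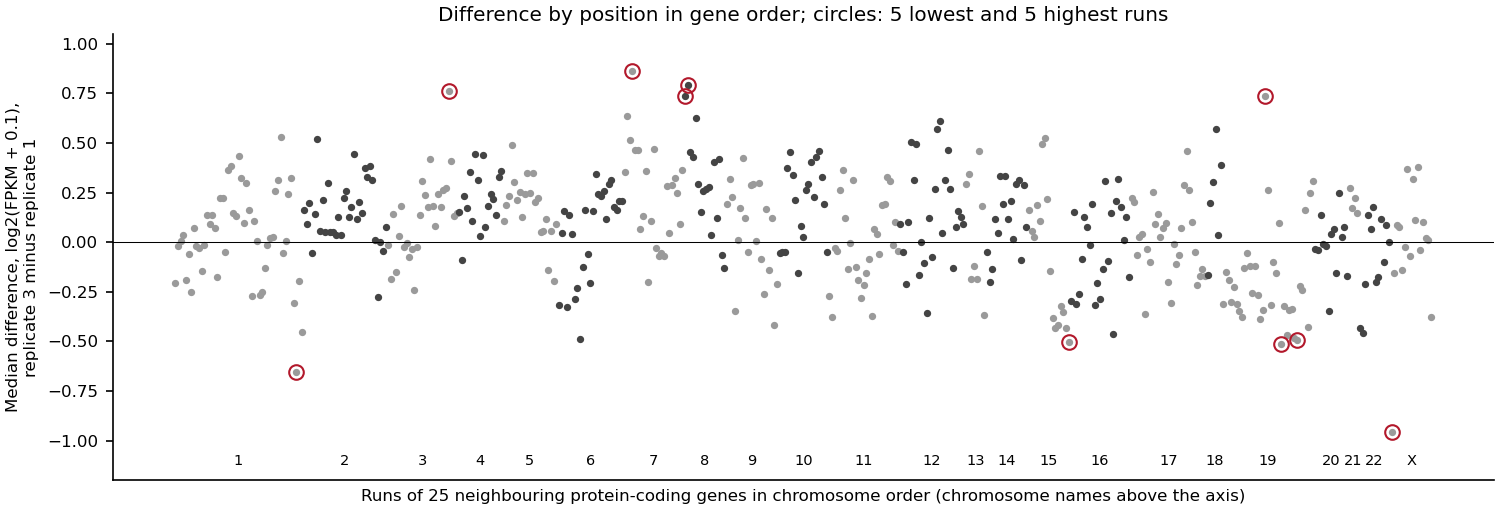
Median difference of runs of 25 neighbouring protein-coding genes in chromosome order, as log2(FPKM + 0.1) in replicate 3 minus replicate 1. Each point is a run, shades alternate between chromosomes, and circles mark the 5 lowest and 5 highest of 479 runs. The lowest run, at the tip of the short arm of chromosome X, has a median of -0.96 and the highest, on chromosome 7, one of 0.86.

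Neighbouring genes moved together in some stretches of the genome. The tested protein-coding genes were cut into 479 consecutive runs of 25, whose medians had a 5th percentile of -0.36 and a 95th of 0.46. The runs named here were picked by their values and have no test. The lowest reached from PLCXD1 to OFD1 on chromosome X (276322 to 13777955), with a median of -0.96, 22 of 25 genes below 0 and medians of -0.59, -1.31 and -0.93 in the WT, SEL1L KO and HRD1 KO pairs. Its members include the adenine nucleotide carrier gene SLC25A6 (-1.64), CD99 (-1.35), PPP2R3B (-1.89), TMSB4X (-2.28) and PNPLA4, and 12 of them were lower and 1 higher. Against replicate 1 its median in replicate 2 was 0.01. The next, on chromosome 1 from ACBD3 to CCSAP (226144679 to 229343294), had a median of -0.65 with 11 genes lower and 0 higher, 23 of 25 below 0, and 0.13 in replicate 2 against replicate 1. MRPL55 lies in it. The highest run, on chromosome 7 from POLR1F to SNX10 (19695461 to 26374383), had a median of 0.86 with 14 genes higher and 1 lower. With the trend over GC content and length removed, these 3 medians were -0.92, -0.69 and 0.56. Among the 5 lowest, 2 runs on chromosome 19 fell in size by that correction, from -0.51 to -0.16 and from -0.49 to -0.15. By whole chromosome, medians ran from -0.20 on chromosome 19 to 0.22 on chromosome 8.

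Replicate 2 was fitted beside the other numbers over all 9 libraries, where the contrasts share libraries and are given side by side only. Against replicate 1, 691 genes were higher in replicate 2 (4.6%) and 202 lower (1.34%). In replicate 3 against replicate 2, 539 were higher (3.59%) and 1120 lower (7.46%). Ribosomal protein mRNAs had medians of -0.40 in replicate 2 against 1 and -0.26 in replicate 3 against 2. The extracellular matrix list had 0.07 and -0.70, p53 targets 0.09 and -0.71, nucleolar genes 0.00 and 0.35, cholesterol synthesis 0.27 and 0.25, and hypoxia genes 0.61 and -0.60. At matrix, p53 and nucleolar genes replicate 2 thus lay by replicate 1, at ribosomal protein and sterol genes between the others, and at hypoxia genes above both.

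The comparison of genotypes over the same 6 libraries shows how much room the replicate number takes. limma's F test over the 3 genotypes called 0 genes when the replicate number was left out (100 at an unadjusted p under 0.05). With the number as a block it called 12 genes (0.0799%, with 511 unadjusted). Both unadjusted counts lie under the share that a threshold of 0.05 alone would give. Of the 12 called genes, MIR3648-1 and MIR3648-2 have identical values in each of the 6 libraries, and 5 belong to the ER list. HSPA5, the chaperone BiP, had 194, 920 and 1247 in replicate 1 and 158, 868 and 1068 in replicate 3, with an adjusted p of 0.00106 with the block and 0.121 without. PDIA4, HSP90B1, HERPUD1 and SDF2L1 were the others. Both knockout-labelled libraries lay above WT in all 5 genes within each number, and between the numbers HSPA5 differed by -0.20 and PDIA4 by 0.08. These genes were chosen after their values were seen.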

How the data were processed

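The values that the authors deposited, after alignment by STAR 2.7.8a against GRCh38 (Ensembl) and estimation by RSEM 1.3.3, are FPKM per gene and library for 62714 genes. Ensembl's release is not given in the sources used here. FPKM is no count, so the authors' DESeq2 test on estimated counts was not repeated, and total depth is unknown. Relative depth came from the commonest ratio between 2 libraries among genes with the lowest FPKM values. That ratio was assumed to be 1 fragment against 1 fragment (the deepest of the 6 libraries had 1.5 times the depth of the shallowest). The comparison was fitted with limma 3.58.1 under R 4.3.3, with variances moderated along a trend over the mean, on log2(FPKM + 0.1), with genotype as block, 2 residual degrees of freedom and a prior of 6.58, and were checked on simulated data. Positions, exon lengths and GC content are of GENCODE v44 on GRCh38, promoters of RefSeq on GRCh38.p14.

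Groups and numbers come from the labels. Across the 9 libraries, deviations from the genotype means correlated at 0.294 to 0.495 between libraries of the same number, so the numbers pair the libraries. Between others they correlated at most at 0.00471. The deviations of a genotype cancel out, so positive values within a number push those between numbers down, and the latter add no separate evidence. The comparison, the 34 gene lists and the rules were chosen with earlier results of these data known. Named genes are SEL1L and SYVN1, the 10 largest called differences in each direction with a symbol, a mean FPKM of at least 2 and 1 direction in all genotypes, and up to 4 called members of each list by smallest p. Some genes that the rule selects are not reported here. Members outside this rule were named after their values were seen. No set test was made. The HEK293T table has 0 value columns without a sample, and the mouse table was not used here. The removal of the GC content and length trend (natural splines, 15009 genes) was added after seeing the data. Tables and plots used pandas 2.3.3, NumPy 2.4.6 and matplotlib 3.10.9 in Python 3.11.15.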

Additional observations from a re-analysis of the deposited data

Results flagged for a closer look

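Of 28 lists with at least 5 tested members, 2 had a median that pointed one way in 1 genotype's pair and the other way in another, at least 0.5 apart. Hypoxia response genes had a median difference of -0.75 in the WT pair and 0.13 in the HRD1 KO pair. Replication-dependent histones had -0.90 in the HRD1 KO pair and 0.19 in the SEL1L KO pair. Each pair is 1 library against 1, so neither difference between pairs was tested.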

How the results depend on the processing

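The count of genes higher in replicate 3 was 1552 and that of genes higher in replicate 1 was 1406. Scaling to a common sum (TPM) gave 2480 and 994, all 9 libraries 2384 and 2118, unadjusted p 2918 and 2630, no variance trend 204 and 282, and no filter on low values (29536 genes tested by limma, 3048 and 3343 at an unadjusted p under 0.05) 1, GEN1, and 0. Leaving out 1 genotype's pair gave 666 to 1872 and 629 to 1856. Under median-ratio scaling, quantile normalization, pseudocounts of 1 and 0.01, an FPKM of at least 1 in all 6 libraries, no genotype block and the removed GC content and length trend, both counts stayed within 1.5 times. Genotype calls rose from 0 to 12 with the replicate block and to 2 with median-ratio scaling, where 108 genes had an unadjusted p under 0.05. SYVN1, not called, changed sign to 0.0378 with scaling to a common sum. Of the genes named by rule, 121 lost their call without the filter, 85 without the variance trend, 26 with the GC content and length trend removed, and 39, 22 and 10 without the HRD1 KO, WT and SEL1L KO pair, and the cause was not tested. Total depth is unknown, so no limit of detection can be given.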
